A study of Mus musculus with 6 samples.

Results

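The Gimap genes encode the GTPases of immunity-associated proteins, and 8 of the 22322 genes in the deposited table belong to the family by their symbol, namely Gimap1, Gimap3, Gimap4, Gimap5, Gimap6, Gimap7, Gimap8 and Gimap9. They were measured by RNA-Seq in CD4+CD8+ double positive (DP) thymocytes, the stage at which immature T cells carry both coreceptors, sorted from the mouse thymus. Each genotype had 3 libraries. By the methods the control mice were Paxbp1 fl/fl littermates, so they carried the floxed Paxbp1 allele, while the sample titles call these libraries WT. The Paxbp1 cKO mice were Paxbp1 fl/fl with a Cre transgene driven by the Lck promoter, which acts in the T lineage. The methods put the mice at a few weeks of age, of either sex, on a C57BL/6 background, and the labels give no treatment. Nothing in the labels says whether the libraries of a group came from separate mice, so the p-values measure only the spread between these libraries. In a sorted bulk sample fewer cells of a type cannot be told apart from less RNA per cell.

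GIMAP proteins bind guanine nucleotides through an AIG1-type GTPase domain, and they are found mainly in lymphocytes, where several of them sit on the membranes of organelles. The family is known for its part in lymphocyte survival, since loss of Gimap5 in rats or mice depletes peripheral T cells and loss of Gimap1 removes mature T and B cells. Gimap transcripts are known to increase as thymocytes pass positive selection and mature.

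The 8 genes stand in 1 cluster on mouse chromosome 6, at chr6:48647234-48770851 of GRCm38, a span of 123.6 kb in GENCODE release M21. From the low to the high coordinate the order was Gimap8, Gimap9, Gimap4, Gimap6, Gimap7, Gimap1, Gimap5 and Gimap3, with Gimap6 and Gimap3 on the minus strand and the other genes on the plus strand. What the members share in sequence is best seen in the P-loop, the stretch of the GTPase domain that wraps the phosphates of the nucleotide. The stretches of coding sequence are shown 5′ to 3′ on the strand of each gene, with the codons of the first glycine and of the closing glycine, lysine and serine in capitals.
Gimap8 (chr6:48650256-48650279, plus strand, exon 2): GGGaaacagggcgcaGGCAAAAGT
Gimap8 (chr6:48656119-48656142, plus strand, exon 4): GGGaagcgtggtgttGGGAAAAGT
Gimap8 (chr6:48658746-48658769, plus strand, exon 5): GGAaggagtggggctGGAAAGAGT
Gimap9 (chr6:48677523-48677546, plus strand, exon 2): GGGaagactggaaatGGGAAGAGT
Gimap4 (chr6:48690421-48690444, plus strand, exon 3): GGAaaaactggagcaGGAAAGAGT
Gimap6 (chr6:48702750-48702773, minus strand, exon 3): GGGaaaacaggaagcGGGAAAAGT
Gimap7 (chr6:48723524-48723547, plus strand, exon 2): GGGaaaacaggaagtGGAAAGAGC
Gimap1 (chr6:48742552-48742575, plus strand, exon 3): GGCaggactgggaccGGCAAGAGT
Gimap5 (chr6:48752594-48752617, plus strand, exon 3): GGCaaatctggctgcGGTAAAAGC
Gimap3 (chr6:48765887-48765910, minus strand, exon 5): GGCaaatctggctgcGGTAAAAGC
Gimap8, whose product carries a series of GTPase domains, held 3 such stretches, in exons 2, 4 and 5, and each other member held 1. The stretches of Gimap3 and Gimap5 were identical. Over the whole coding sequence these genes matched at 796 of 900 aligned bases (88.4%), whereas the next closest pair, Gimap7 and Gimap9, reached 64.9% and the most distant, Gimap1 and Gimap9, 51.6%. The longest run of identical coding bases between Gimap3 and Gimap5 was 140 bases, at chr6:48765681-48765820 on the minus strand in exon 5 of Gimap3 and at chr6:48752684-48752823 on the plus strand in exon 3 of Gimap5. It is shown because reads lying inside it could belong to either gene.
Gimap3 and Gimap5: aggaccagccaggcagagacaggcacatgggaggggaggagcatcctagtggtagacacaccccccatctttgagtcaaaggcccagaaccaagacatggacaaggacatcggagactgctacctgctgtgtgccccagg
Words of 50 bases were taken from 1 chosen transcript of each member and sought in all transcripts of other genes. Of the words of Gimap5, 9.98% also occurred in Gimap3, and 9.06% of the words of Gimap3 occurred in Gimap5. The sources used here do not say how the counting treated such reads, so the values of both genes are uncertain to that extent. With Gm28053, a read-through gene annotated across Gimap7, Gimap1 and Gimap5 on the same strand, 5.51% of the Gimap5 words, 10.32% of the Gimap1 words and 2.62% of the Gimap7 words were shared. Over all other genes together 15.07% of the Gimap5 words were shared, since some words occurred in both Gimap3 and Gm28053. Gimap1 also shared 7.34% of its words with Gimap1os on the opposite strand. Gimap4, Gimap6, Gimap8 and Gimap9 shared no 50-base word with another gene.

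Libraries held 18963775 to 26252248 counts, and 1 count was worth 0.0381 to 0.0527 CPM, the unit of counts scaled to library size. Paxbp1 itself had 15.5 to 40.1 CPM in the control libraries and 38.8 to 49.6 CPM in the cKO-labelled libraries, a log2 fold change of 0.92 that did not pass the test (SE 0.33, edgeR adjusted p = 0.0977). It passed with DESeq2, with limma-voom and without control replicate 1. Whole-gene counts do not measure the floxed exon and so do not check the labels, and the direction of Paxbp1 went against a loss. The paper reported the deletion by other assays. Its western blot of sorted thymocytes, DP cells among them, showed efficient loss of the protein in cKO mice. By qPCR it found deletion complete at a stage before DP. Whether the mice of these libraries were among those assayed is not stated there. Among 17 genes of DP thymocytes, all had counts enough for testing, and Cd8b1, a chain of the CD8 coreceptor, was at 1945 ± 366 CPM in controls and 1304 ± 163 CPM in the cKO-labelled libraries (SD, n = 3 each). Macrophage markers were also present at low levels: Adgre1, which encodes a macrophage surface receptor, was at 0 counts in every control library and at 2.29 ± 0.107 CPM in the cKO-labelled libraries (SD, n = 3), while Mertk and Marco were at 0 in all 6 libraries.

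The family was led by 3 genes. Length-scaled levels, as the deposited FPKM values (fragments scaled by gene length and library size), averaged over the 6 libraries, were 239 for Gimap6, 152 for Gimap9 and 96.5 for Gimap1. The other members followed far below, with 12.6 for Gimap5, 6.66 for Gimap7, 5.73 for Gimap8, 1.995 for Gimap3 and 1.92 for Gimap4. In every library Gimap6, Gimap9 and Gimap1 together held 92.9% to 95.8% of the summed FPKM of the family. Neighbours in the order were clearly apart only between Gimap1 and Gimap5 and between Gimap8 and Gimap3, where the ranges over the 6 libraries did not overlap. Gimap6 was above Gimap9, and Gimap9 above Gimap1, in 6 of 6 libraries although their ranges overlapped. Gimap5 was above Gimap7 in 5 libraries, Gimap7 above Gimap8 in 4 and Gimap3 above Gimap4 in 3, so that the last pair had no order.

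**Figure D1:**
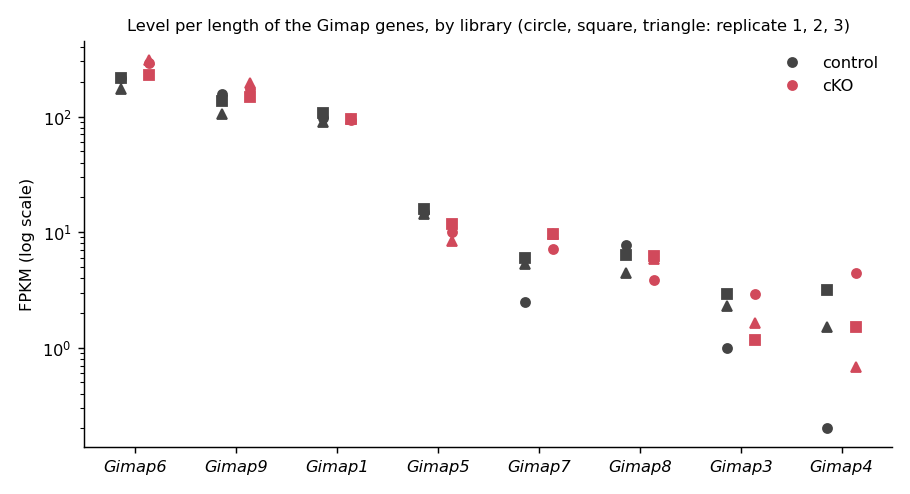
Deposited FPKM of the 8 Gimap genes on a log axis, with 1 point per library (3 control, 3 cKO) and genes ordered by their mean over the 6 libraries. Gimap6, Gimap9 and Gimap1 lie between 89.7 and 310 FPKM, and the other 5 genes lie at or below 16.0 FPKM.

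The question of the comparison was whether these genes differed between control and cKO DP thymocytes. No Gimap gene passed edgeR's quasi-likelihood test at an adjusted p of 0.05, in either direction, although all 8 had enough counts to be tested. Over the 11488 genes tested, 10.4% passed, 4.47% as higher and 5.89% as lower in the cKO-labelled libraries, and 2.76% passed with an absolute log2 fold change above 1, of which none was a Gimap gene. At an unadjusted p below 0.05 there were 3 Gimap genes, Gimap5, Gimap6 and Gimap7, where 27.9% of all tested genes reached it. DESeq2 called 2, Gimap5 lower and Gimap6 higher, where it called 15.2% of the genes it tested. The groups did not overlap for 3 of 8 members, 2 higher and 1 lower, against 33.0% of all tested genes, 15.7% higher and 17.3% lower, so this share was near the background. The median log2 fold change was 0.14 over the members and -0.0017 over all tested genes, and 4 of the 8 members lay above 0. A missed threshold does not show that a gene was the same in both genotypes, and the intervals below give the sizes left possible.

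**Figure D2:**
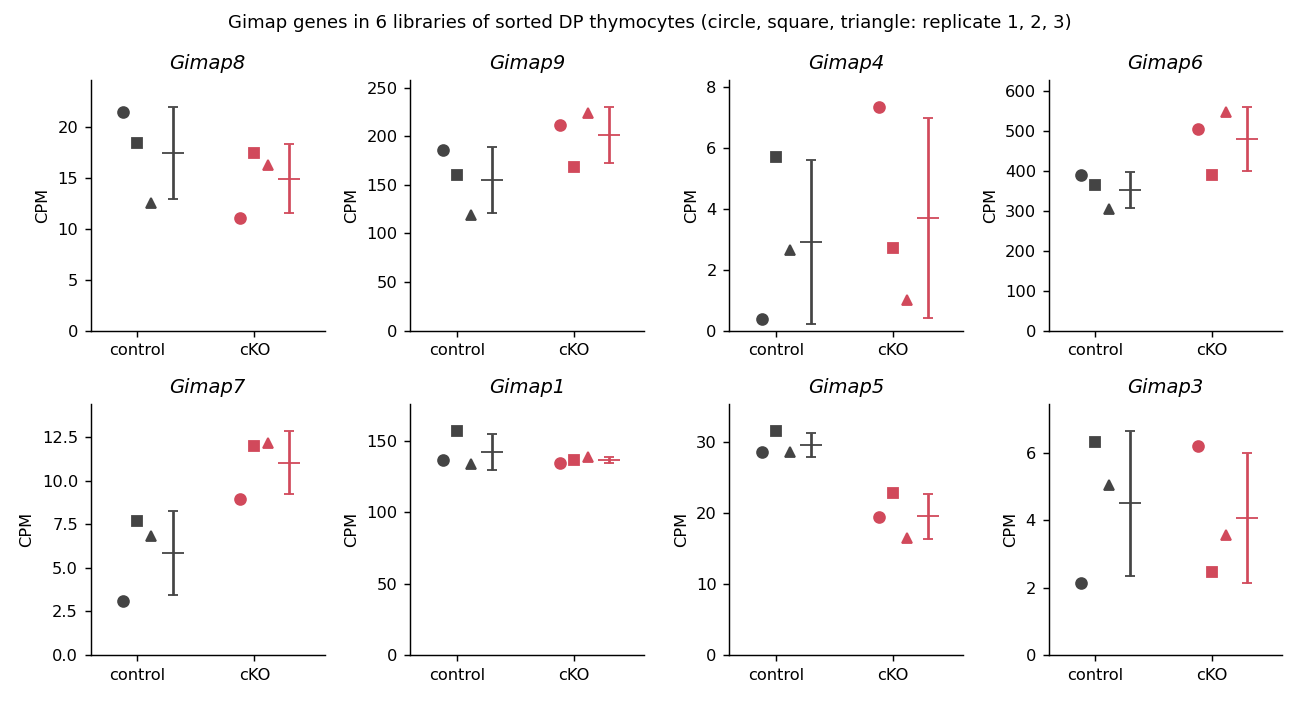
CPM of each Gimap gene in the 3 control libraries (grey) and the 3 cKO-labelled libraries (red), in chromosomal order; circle, square and triangle are replicates 1, 2 and 3, and bars are the mean ± SD, each panel on its own scale from 0. Gimap5 lies lower and Gimap6 and Gimap7 lie higher in all cKO-labelled libraries than in all controls, Gimap6 by a gap smaller than 1 CPM, and the groups overlap in the other 5 panels.

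Gimap5, whose product is needed for survival of peripheral T cells, was the member with the lowest adjusted p. It had 28.7, 31.6 and 28.6 CPM in control replicates 1 to 3 and 19.4, 22.8 and 16.5 CPM in the cKO-labelled libraries. Every cKO-labelled library lay below every control. The means were 29.6 ± 1.71 and 19.6 ± 3.16 CPM (SD, n = 3 each), a fold of 0.660 with a 95% interval of 0.503 to 0.866. The log2 fold change was -0.60 (SE 0.18, edgeR adjusted p = 0.0564). Summed with its near-copy Gimap3, a setting added with the values in view, Gimap5 stood at -0.53 on the log2 scale (edgeR adjusted p = 0.0717). Gm28053, which overlaps Gimap5, was counted separately at 1.39 ± 0.332 and 0.763 ± 0.145 CPM, with a log2 fold change of -0.86 that did not pass (SE 0.62, edgeR adjusted p = 0.410).

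Gimap6, whose product binds the autophagy protein GABARAPL2, was the most abundant member. Its levels were 389.1, 364 and 303 CPM in the controls and 503, 389.5 and 546 CPM in the cKO-labelled libraries. The groups did not overlap, but cKO replicate 2 stood barely above control replicate 1. The means were 352 ± 44.2 and 479.5 ± 80.8 CPM (SD, n = 3 each), a fold of 1.36 with a 95% interval of 1.08 to 1.71, and the log2 fold change was 0.45 (SE 0.15, edgeR adjusted p = 0.0818). Without control replicate 1 it was 0.52 and passed (edgeR adjusted p = 0.0387), in a fit where 17.1% of all tested genes passed.

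Gimap7, whose GTPase activity is switched on by pairing of the protein with itself, was low. It had 3.11, 7.66 and 6.79 CPM in the controls and 8.94, 11.97 and 12.2 CPM in the cKO-labelled libraries, from 60 to 264 counts. All 3 cKO-labelled libraries lay above all controls. The means were 5.85 ± 2.41 and 11.0 ± 1.81 CPM (SD, n = 3 each), and the fold of 1.88 had a 95% interval of 1.11 to 3.18. The log2 fold change was 0.91 (SE 0.34, edgeR adjusted p = 0.114). Gimap5 and Gimap7 thus stood apart in opposite directions, and the FPKM of Gimap5 over that of Gimap7 was 5.99, 2.68 and 2.74 in the controls and 1.41, 1.24 and 0.878 in the cKO-labelled libraries. The ratio was formed with these values in view and was not tested.

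Gimap9, which follows Gimap6 in abundance, had 186, 160 and 119 CPM in the controls and 211, 169 and 224 CPM in the cKO-labelled libraries. The groups overlapped, since cKO replicate 2 lay below control replicate 1. The means were 155 ± 33.8 and 201 ± 29.1 CPM (SD, n = 3 each), a fold of 1.302 with a 95% interval of 0.999 to 1.70. The log2 fold change was 0.38 (SE 0.17, edgeR adjusted p = 0.181), and without control replicate 1 it was 0.53 and passed (edgeR adjusted p = 0.0481).

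Gimap1, whose product is needed by mature T and B cells, was the steadiest member. It had 136, 157 and 134 CPM in the controls and 135, 136 and 139 CPM in the cKO-labelled libraries, and the groups overlapped. The log2 fold change was -0.06 with a 95% interval of -0.31 to 0.19 (edgeR adjusted p = 0.777). The shares of words held in common with Gm28053 and Gimap1os apply to it.

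Gimap8, the member with a series of GTPase domains, had 21.4, 18.4 and 12.5 CPM in the controls and 11.0, 17.4 and 16.2 CPM in the cKO-labelled libraries. The groups overlapped, and the log2 fold change was -0.23 with a 95% interval of -0.80 to 0.34 (edgeR adjusted p = 0.619). Gimap3 had 2.13, 6.32 and 5.04 CPM in the controls and 6.21, 2.446 and 3.55 CPM in the cKO-labelled libraries, with a log2 fold change of -0.14 and a 95% interval of -1.23 to 0.94. Gimap4, known to affect the pace of T cell death, was the most variable member. Its 0.363, 5.70 and 2.64 CPM in the controls, from 7, 111 and 68 counts, stood beside 7.35, 2.71 and 1.02 CPM, from 161, 52 and 22 counts, in the cKO-labelled libraries. Its highest library was 20.2-fold above its lowest, both groups spanned almost the whole range, and the log2 fold change of 0.35 had a 95% interval of -1.56 to 2.26. Leaving out control replicate 1 turned it to -0.17 and leaving out cKO replicate 1 to -0.64. Gimap3 turned to 0.17 without control replicate 2 and to 0.11 without cKO replicate 2.

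**Figure D3:**
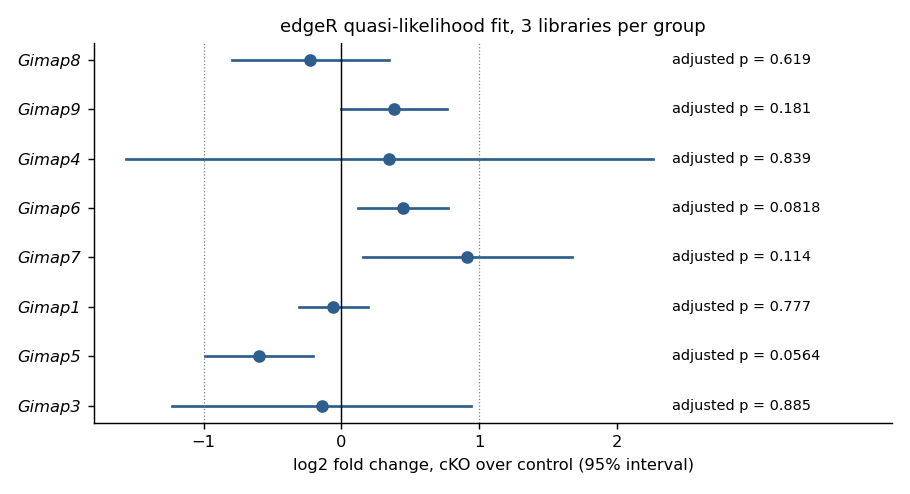
Log2 fold change of each Gimap gene, cKO over control, from edgeR (points) with its 95% interval (bars) and adjusted p; the solid line marks 0 and the dotted lines mark -1 and 1, the fold threshold. The intervals of Gimap5, Gimap6 and Gimap7 leave out 0, and those of Gimap3 and Gimap4 are the widest.

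As a sum, the family had 767, 750 and 611 CPM in the controls and 902, 752 and 958 CPM in the cKO-labelled libraries, and these groups overlapped. The means were 709 ± 85.7 and 871 ± 107 CPM (SD, n = 3 each), a ratio of 1.23. The sum of the deposited FPKM values was 393.5 to 495 in controls and 503 to 627 in the cKO-labelled libraries, without overlap, so whether the groups were apart depended on the scale. The 5 lower members summed to 60.3 ± 8.11 CPM in controls and 53.2 ± 3.93 CPM in the cKO-labelled libraries. Gimap6 and Gimap9 alone had higher means among the 3 abundant genes.

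**Figure D4:**
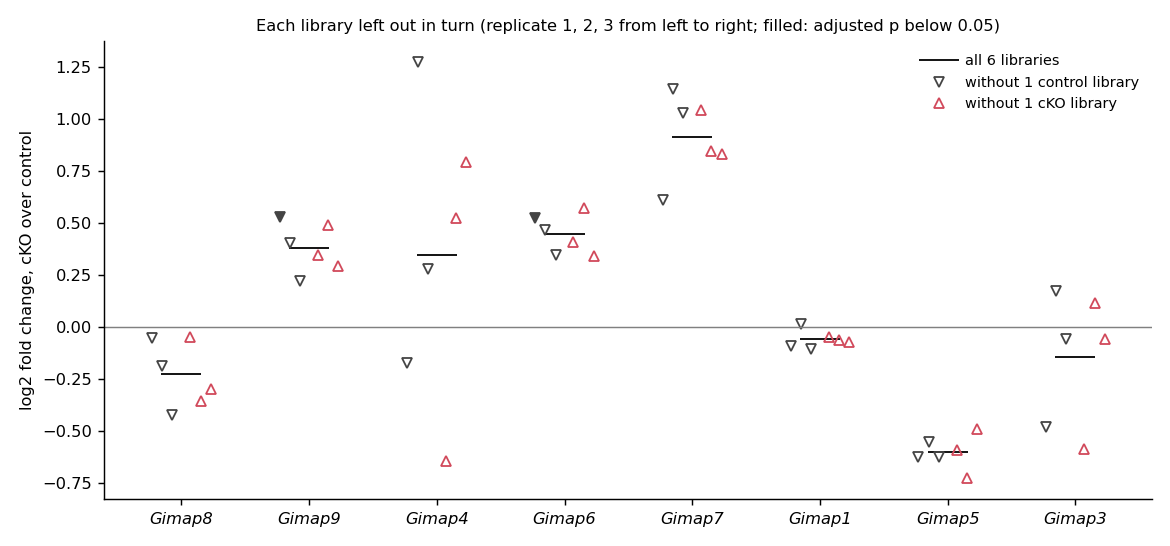
Log2 fold change of each Gimap gene with all 6 libraries and with each library left out in turn (cKO over control, edgeR); the line is the value with all libraries, and filled symbols passed the test. Gimap5 stays between -0.73 and -0.49 and Gimap6 between 0.34 and 0.57, while Gimap3 and Gimap4 fall on both sides of 0.

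In chromosomal order the log2 fold changes of the adjacent Gimap9, Gimap4, Gimap6 and Gimap7 lay above 0, and those of Gimap8 at one end and of Gimap1, Gimap5 and Gimap3 at the other lay below. The groups were apart only for Gimap6, Gimap7 and Gimap5, and the signs of Gimap1, Gimap3 and Gimap4 turned when a library was left out, so the order of signs was described and not tested. Within 500 kb of the cluster 52 other genes are annotated, 22 of them were in the table and 12 were tested, including Gm28053 inside the cluster. None passed the test, their log2 fold changes ran from -0.86 to 1.69 with a median of -0.19, and 5 of the 12 had groups apart, against 33.0% of all tested genes. Repin1 passed with DESeq2 and AI854703 passed without control replicate 1, and both were singled out after their values were seen. Repin1 was at 12.2 ± 2.22 and 19.8 ± 1.48 CPM (SD, n = 3 each; log2 fold change 0.70, SE 0.21, edgeR adjusted p = 0.0569).

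**Figure D5:**
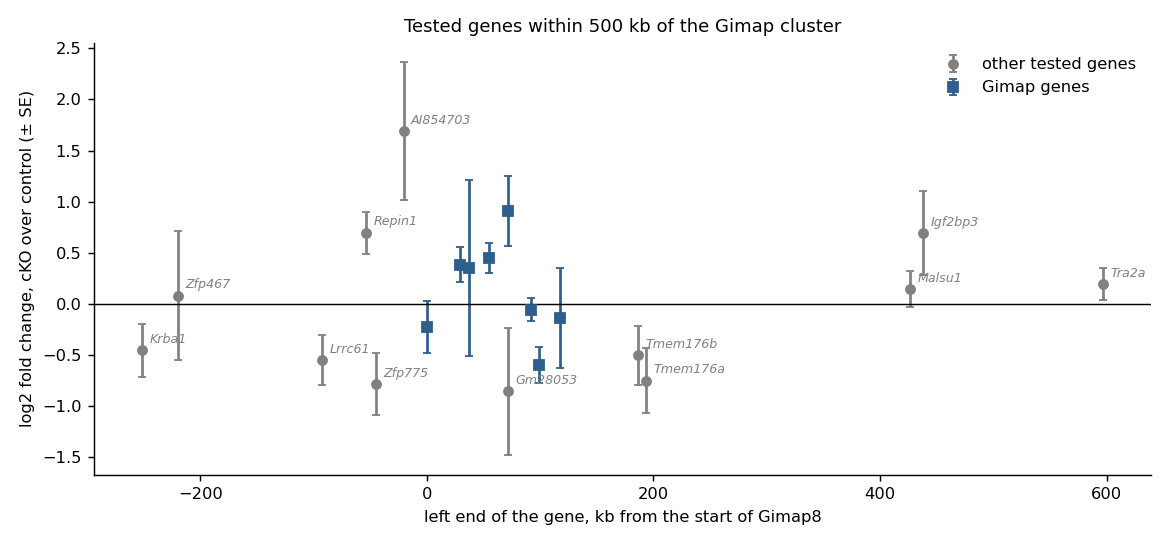
Log2 fold change (cKO over control, edgeR) against the left end of each gene in kb from the start of Gimap8, with SE as bars, for the 8 Gimap genes (squares) and the 12 tested neighbours (circles). The Gimap genes and the neighbours lie on both sides of 0.

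The promoters of the 3 members whose groups did not overlap are shown next, 5′ to 3′ on the strand of the gene, as the 250 bases before the start in RefSeq on GRCm38.p6, with the motifs found in capitals.
Gimap5 (chr6:48745947-48746196, plus strand): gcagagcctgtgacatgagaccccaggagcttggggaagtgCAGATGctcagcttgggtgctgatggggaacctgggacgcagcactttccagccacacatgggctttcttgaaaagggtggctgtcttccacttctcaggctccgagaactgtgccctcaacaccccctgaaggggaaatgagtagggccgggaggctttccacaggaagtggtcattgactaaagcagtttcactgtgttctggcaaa
Gimap6 (chr6:48708245-48708494, minus strand): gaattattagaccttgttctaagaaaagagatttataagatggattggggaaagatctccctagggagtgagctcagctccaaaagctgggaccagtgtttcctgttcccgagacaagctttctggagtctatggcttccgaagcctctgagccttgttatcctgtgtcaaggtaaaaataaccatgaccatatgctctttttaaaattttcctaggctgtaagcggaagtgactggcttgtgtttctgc
Gimap7 (chr6:48718371-48718620, plus strand): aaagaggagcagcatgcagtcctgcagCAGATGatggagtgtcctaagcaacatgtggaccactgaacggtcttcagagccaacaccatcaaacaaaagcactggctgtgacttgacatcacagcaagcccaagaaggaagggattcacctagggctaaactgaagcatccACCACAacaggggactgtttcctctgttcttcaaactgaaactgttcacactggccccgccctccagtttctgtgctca
Capitals mark the E box CAGNTG in Gimap5 and Gimap7 and the RUNX motif TGTGGT, read on the other strand, in Gimap7. Among 9 Gimap promoters (Gimap8 has a pair), the E box was found in 4 and the RUNX motif in 3, each searched on both strands, against 44.82% and 14.05% of all 32851 promoters of this length. The ETS motif, spelled CCGGAAG, was found in 0 of them, against 6.907% of all promoters. The GATA motif, spelled AGATAA, was likewise found in 0, against 9.988% of all promoters. A TCF/LEF motif with the letters CTTTGA occurred in 0, against 13.83%. A match is a description of letters and shows no binding.

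Genes tied to GIMAP biology were read from lists. Over all tested genes, 4.47% were called higher and 5.89% lower. With lists this short, 1 call in a direction was not read as a result about a list. Of 7 BCL-2 family genes whose products bind or act beside GIMAP proteins, 1 rose and 0 fell, with a median log2 fold change of -0.25. The riser was Bcl2l11, which encodes the death-promoting protein BIM and went from 99.1 ± 41.2 to 245 ± 76.5 CPM (SD, n = 3 each; log2 fold change 1.31, edgeR adjusted p = 0.0228). That call was lost without control replicate 2, control replicate 3, cKO replicate 1 or cKO replicate 3, and the log2 fold change lay between 1.09 and 1.69 over the 15 alternatives run. Of 14 ATG8 genes and conjugation factors of autophagy, 0 rose and 1 fell, with a median of -0.17. Becn1, which encodes a subunit of the lipid kinase that starts autophagosome formation, went from 259 ± 4.90 to 200.2 ± 6.45 CPM (log2 fold change -0.37, edgeR adjusted p = 0.0459), and 11 of 15 alternatives lost the call, among them the leave-outs of every library except control replicate 1. Of 17 tested interferon-inducible GTPases, another GTPase family of immunity, 1 rose and 1 fell and the median was 0.51. The number that rose was 5 without control replicate 2, 3 with limma-voom and on both FPKM scales, 2 with DESeq2, and 0 without control replicate 3, cKO replicate 1 or cKO replicate 3. Gbp3 went from 3.92 ± 1.74 to 11.9 ± 2.16 CPM (log2 fold change 1.61, edgeR adjusted p = 0.0193) and lost its call without control replicate 3, cKO replicate 1 or cKO replicate 3. Gbp8 went from 378 ± 36.2 to 237 ± 46.4 CPM (log2 fold change -0.68, edgeR adjusted p = 0.0228) and lost it without control replicate 2, cKO replicate 2 or cKO replicate 3.

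The stage of the thymocytes was read in the same way, since Gimap genes are known to change along it. Of 17 DP genes, 0 rose and 8 fell, where 4.47% and 5.89% of all tested genes did so, and the median log2 fold change was -0.42. Cd1d1 (-0.97), Rag1 (-0.85), Bcl11b (-0.84) and Satb1 (-0.67) had the largest log2 fold changes, and their edgeR adjusted p were 0.00408, 0.00923, 0.00613 and 0.00825. Without 1 library the number of DP genes that fell ran from 1 (without cKO replicate 3) to 12 (without control replicate 1). Rag1, Bcl11b and Satb1 lost the call without cKO replicate 3. Of 20 tested late DP and mature single positive genes, 2 rose (Cd69 and Foxo1) and 0 fell, with a median of -0.27, and the Cd69 groups overlapped. Both calls were lost without control replicate 2, control replicate 3, cKO replicate 1 or cKO replicate 3, and on both FPKM scales. Without control replicate 1 the list had 3 that rose and 3 that fell. For Cd69 the paper measured the surface protein, not RNA, by flow cytometry. It reported that protein as unaltered in cKO DP and single positive cells. Of 10 tested double negative and immature single positive stage genes, Hes1, Il2ra and Dtx1 rose and Gfi1 fell, with a median of 0.11. Hes1, a Notch target, kept its call in all 15 alternatives (log2 fold change 2.79, edgeR adjusted p = 0.00349), and the calls of Il2ra, Dtx1 and Gfi1 were lost in 4 or 5 of the 6 leave-outs, cKO replicates 1 and 3 among them. Il2ra also lost its call on both FPKM scales, where its log2 fold change was as low as 0.70, and Dtx1 with log2(FPKM + 0.1).

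Markers of other cells were counted because Gimap genes are also used by other leukocytes and by endothelium. Of 14 tested macrophage markers, 6 rose and 0 fell (median log2 fold change 2.10), where 4.47% of all tested genes rose and 5.89% fell. The largest calls were Adgre1, Slc40a1, Vcam1 and C1qc, at 0, 0.310, 0.357 and 0.961 CPM in controls. All of these except C1qc reached the filter only through their cKO-labelled libraries. The filter thus tilts the count and the median upward, and they cannot be set plainly against the share over all tested genes. Vcam1, Slc40a1 and C1qc lost their calls without cKO replicate 3, and Slc40a1 also without control replicate 2, cKO replicate 1 or cKO replicate 2. The number of macrophage markers that rose was 1 without cKO replicate 3 and 8 without control replicate 1, and it was 10 with DESeq2, 9 with no filter and 1 with the filter of 5 CPM. The summed level of that list was 412 to 463 CPM in controls and 430 to 452 CPM in the cKO-labelled libraries, most of it Ctsb at 398 ± 36.1 and 351 ± 3.71 CPM. Of 6 tested natural killer and innate T cell markers, 1 rose, Gzma, from 55.6 ± 19.7 to 148 ± 13.3 CPM (log2 fold change 1.41, edgeR adjusted p = 0.00825, lost without cKO replicate 3), with 3 called by DESeq2 and on both FPKM scales. The list summed to 114 to 213 CPM in controls and 295 to 335 CPM in the cKO-labelled libraries, most of it Gzma and Trdc. Trdc went from 112 ± 33.1 to 149 ± 16.8 CPM without passing (edgeR adjusted p = 0.224). Of the 6, 5 had a log2 fold change above 0, and Prf1 went down, from 8.69 to 5.29 CPM. Tyrobp and Fcer1g, at 0.430 and 0.349 CPM in controls, also reached the filter only through the cKO-labelled libraries. Of 12 endothelial markers 2 were tested and 0 passed, and Kdr, Tek, Tie1 and Emcn were at 0 in all 6 libraries. The tested ones were Pecam1, at 162 ± 22.4 CPM in controls and 169 ± 11.0 CPM in the cKO-labelled libraries, and Egfl7, at 3.76 and 4.42 CPM. This list summed to 145 to 184 CPM in controls and 164 to 185 CPM in the cKO-labelled libraries, most of it Pecam1. Dendritic cell markers had 4 tested with 0 called, erythroid markers 6 with 0 called (1 lower with DESeq2, with no filter or without control replicate 3), and B cell and thymic epithelial markers 3 and 4 with 1 lower in each list (Cd79b and Cldn4), calls lost without control replicate 2, cKO replicate 1 or cKO replicate 3, and for Cldn4 also without control replicate 3 or cKO replicate 2. Neutrophil markers were too low to test, at a summed 0.312 CPM or less. The part of these cells in the Gimap values was not tested.

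The genes outside the family whose profile over the 6 libraries was most like the mean profile of the Gimap genes were Traf3, Rph3al, Dtwd1, Golm2 and Xylb. Likeness was the root-mean-square difference of centred log2 CPM, with 0.0610 for Traf3 and 0.0787 for Xylb among 9196 genes ranked. None of the 5 passed the test. The mean profile is a weak summary, since the members themselves differed from it by 0.19 (Gimap1) to 0.90 (Gimap4) on the same scale.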

How the data were processed

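Sorted DP thymocytes of 3 control and 3 Paxbp1 cKO libraries were sequenced on an Illumina HiSeq instrument. The library kit is named differently in the labels (SMARTER) and in the methods (Discover-sc and TruePrep), and which is right was not determined. The submitters' processing notes name fastp 0.18.0, Bowtie2 2.2.8, HISAT2, StringTie and RSEM, with no role for each. The build, the annotation, the strand setting and the treatment of shared reads are not named there.

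The authors deposited read counts per gene, unnormalized, and FPKM values scaled by gene length and library size. The deposited columns of mean FPKM, log2 ratio, p-value and FDR are the authors' own comparison and were not used. All per-library columns could be mapped to samples.

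Counts were tested in R 4.3.3 with edgeR 4.0.16 (quasi-likelihood, TMM factors, filterByExpr at 10 counts per library and 15 in total, genotype only), and p-values were adjusted by Benjamini-Hochberg over all 11488 tested genes. CPM used the TMM factors. Alternatives were DESeq2 1.42.0, limma 3.58.1 (voom, and log2 of FPKM plus 0.1 or 1), other scaling factors, other filters, a replicate block and leaving out each library. The summed Gimap3 and Gimap5 counts are an alternative chosen after seeing the data. The fit was also run on simulated counts with the same spread for every gene and changes at or above the fold threshold. That run does not measure the power for smaller changes such as those of the Gimap genes.

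Named genes were the 8 Gimap genes, Paxbp1, the 5 genes of at least 5 CPM with the most similar profile (log2 of CPM plus 0.5), neighbours within 500 kb that passed, and up to 4 passing members of each list. Cd8b1, Ctsb, Trdc, Prf1, Tyrobp, Fcer1g, Pecam1, Egfl7, Kit, Notch3, Gm28053, Repin1 and AI854703 fall outside this rule and were chosen with their values seen. Mertk, Marco, Kdr, Tek, Tie1 and Emcn also fall outside it and were named because they had 0 counts in all libraries. The members and lists were chosen with earlier results of these data known. Positions are from GENCODE M21 (22267 of 22322 identifiers matched), and coding sequences were compared with Biopython 1.88.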

Additional observations from a re-analysis of the deposited data

How the results depend on the processing

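The number of Gimap genes called was 0 higher and 0 lower, and it stayed at 0 and 0 under the other scaling factors, the other filters, limma-voom, both FPKM scales and the replicate block. DESeq2 called 1 higher (Gimap6, log2 fold change 0.46, adjusted p = 0.0270) and 1 lower (Gimap5, -0.59, adjusted p = 0.0326), and its count of all genes higher was 947 against 514 with edgeR. Leaving out 1 library gave 0 to 2 Gimap genes called higher, the 2 being Gimap6 and Gimap9 without control replicate 1, and 0 called lower. Over all genes the leave-outs gave 42 to 1000 higher and 78 to 1030 lower, the fewest without cKO replicate 3 and the most without control replicate 1. The ratio of summed CPM ran from 1.15 to 1.31. Of the neighbours, 1 was called by DESeq2 and 0 to 1 in the leave-outs.

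The sign turned in the leave-outs for Gimap1 (-0.11 to 0.014), Gimap3 (-0.58 to 0.17, with 0.11 without cKO replicate 2) and Gimap4 (-0.64 to 1.27, with -0.17 without control replicate 1), and for no other member. Over the alternatives run, the adjusted p of Gimap5 ran from 0.0326 to 0.202, of Gimap6 from 0.0270 to 0.292, of Gimap7 from 0.0607 to 0.293 and of Gimap9 from 0.0481 to 0.457. The cause of these changes was not tested. Same-numbered libraries deviated together with correlations of 0.0758, 0.159 and 0.0394 over 9202 genes, so the numbers were not taken to pair the samples. With the replicate block, 570 genes were higher and 668 lower, 0 Gimap genes were called, and Gimap7 had a log2 fold change of 0.99 (adjusted p = 0.0607). The block also gave 5 interferon-inducible GTPases higher against 1 without it, 11 DP genes lower against 8, and no call for Becn1 (adjusted p = 0.0551) or Cldn4 (adjusted p = 0.0594). Gimap3 and Gimap4 are too low for the filter of 5 CPM and had no value there. Their counts, as few as 7 in a library, limit their precision, and shared reads limit that of Gimap3 and Gimap5.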
